A study of Rattus norvegicus with 12 samples.

Results

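Bdh1 and Acat1, enzymes at opposite ends of ketone body synthesis in liver mitochondria, were followed in rat liver across diets that differed in the level and the type of fat. Members were all probe sets whose platform annotation gave Bdh1 alone or Acat1 alone, which left 2 of the 4736 named genes and 4 of 8740 probe sets, 1 for Bdh1 and 3 for Acat1. Each array held a pool of liver RNA from male Sprague-Dawley rats that weighed 150 g at the start and were overfed by 17% of total calories for 21 days through a stomach cannula (total enteral nutrition). The 4 groups, each of 3 arrays, received 70% corn oil, 5% corn oil, 70% olive oil or 5% olive oil as the fat of the diet. Corn oil is rich in polyunsaturated and olive oil in monounsaturated fatty acids. All diets were isocaloric, so a diet with more fat held less carbohydrate, and all rats, the 5% fat groups included, were overfed. How many rats went into each pool is not stated in the labels, and p-values measure the spread between pools.

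Ketone bodies are made in liver mitochondria from the acetyl-CoA that fatty acid oxidation releases, and other organs burn them when carbohydrate is scarce. Acat1 encodes the mitochondrial acetoacetyl-CoA thiolase, which joins acetyl-CoA units into acetoacetyl-CoA, the first step of the route. The same enzyme works in the opposite direction where ketone bodies are used, and it completes the breakdown of isoleucine. Bdh1 encodes beta-hydroxybutyrate dehydrogenase, a membrane-bound enzyme that reduces acetoacetate to beta-hydroxybutyrate, the last step before export.

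The single Bdh1 set, rc_AA817846_at, derives from an expressed sequence tag. The Acat1 sets were D13921_s_at, D00512_at and D00512_g_at. By the array maker's naming, the suffixes _s and _g mark sets whose probes may match several transcripts. Values are log2 differences from the median of that probe set over the 12 arrays, so levels of different probe sets cannot be set against each other and no absolute level is known. For the same reason the liver's marker genes could not be checked for their level. Fitted differences come from limma with the standard error (SE) of the model, p-values adjusted by the Benjamini-Hochberg method over all 8740 probe sets, and a probe set was called at an adjusted p of at most 0.05.

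Across both oils, no Bdh1 or Acat1 probe set was called for a change with fat level. Between oils, 1 of the 3 Acat1 sets, D13921_s_at, was called lower with corn than with olive oil at 5% fat, by 2.0-fold, in a comparison that called 19.5% of all probe sets. The other 2 Acat1 sets were fitted higher there and were not called, and Bdh1 lay just outside the threshold in the opposite direction.

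The 3'/5' index, a sign of RNA quality, differed between the oils. It is the log2 value of the 3' control set of an array minus that of its 5' control set, averaged over actin and GAPDH. As the control sets are also given relative to their medians over the arrays, the index compares arrays and is not an absolute ratio. It ran from 0.16 to 1.03 with 70% corn oil and from 0.97 to 1.5 with 5% corn oil. It ran from -0.41 to -0.23 with 70% olive oil and from -0.43 to -0.31 with 5% olive oil. Every corn oil array thus lay above every olive oil array, and the index cannot be told apart from the oil. The closest pair of arrays differed by a root mean square of 0.195 log2, and array medians ran from -0.027 to 0.062.

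Bdh1 stood at 0.11, 0.017 and 0.18 in pools 1 to 3 of 70% corn oil, against 0.76, 0.13 and -0.14 in those of 5% corn oil. It stood at 0.0094, -0.20 and -0.0094 in the pools of 70% olive oil, against -0.23, -0.20 and -0.49 in those of 5% olive oil. All 3 pools of 70% corn oil lay above 0, all 3 pools of 5% olive oil lay below 0, and pool 1 of 5% corn oil was the highest of the 12 arrays. By group mean the order was 5% corn oil (0.25 ± 0.46, SD, n = 3), 70% corn oil (0.10 ± 0.082, SD, n = 3), 70% olive oil (-0.068 ± 0.12, SD, n = 3) and 5% olive oil (-0.30 ± 0.16, SD, n = 3). Of the neighbours in this order, the arrays of 70% corn oil and 70% olive oil did not overlap, while both pairs of the same oil did.

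**Figure D1:**
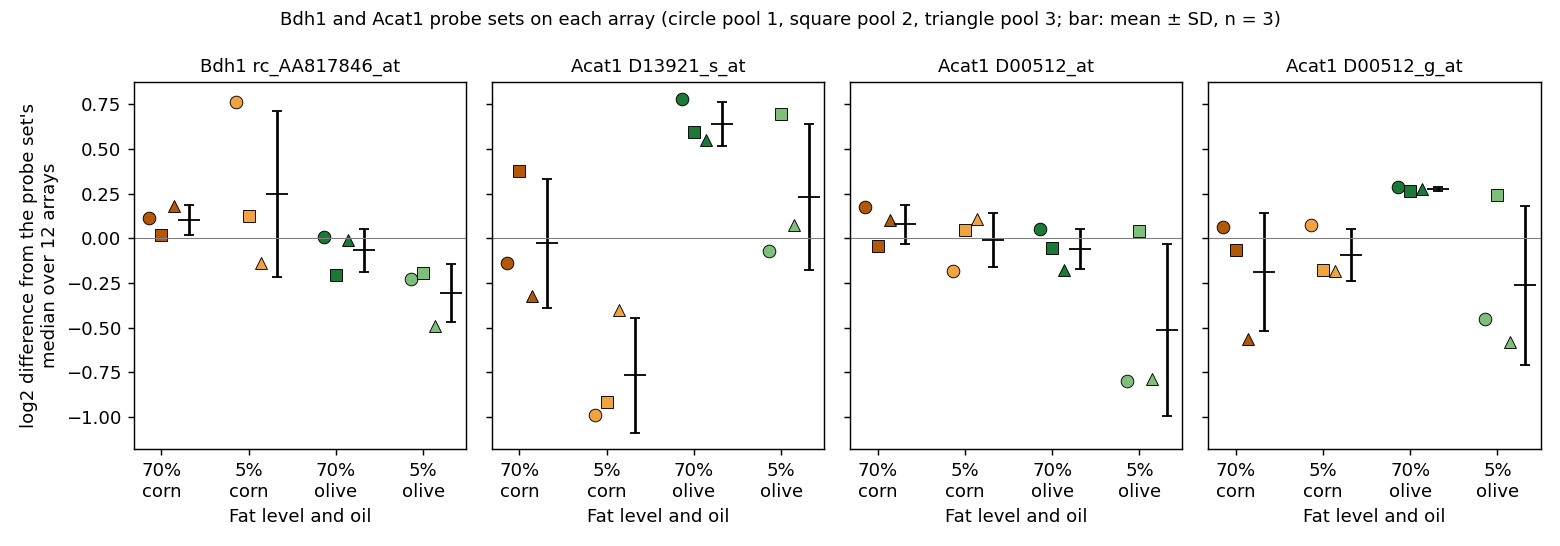
Each point is 1 array, placed by its diet (horizontal axis) and its log2 difference from the median of the probe set (vertical axis), with bars for the mean ± SD of 3 pools. Acat1 D13921_s_at was lowest with 5% corn oil (mean -0.77) and highest with 70% olive oil (mean 0.64), while the other Acat1 sets and Bdh1 had other orders.

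The Acat1 set D13921_s_at stood at -0.14, 0.38 and -0.32 in pools 1 to 3 of 70% corn oil, against -0.99, -0.91 and -0.40 in those of 5% corn oil. With olive oil it stood at 0.78, 0.60 and 0.55 at 70% fat, against -0.072, 0.70 and 0.072 at 5% fat. The fat levels did not overlap with corn oil and did with olive oil, where pool 2 of 5% fat lay among the 70% fat arrays. The order of means was 70% olive oil (0.64 ± 0.12, SD, n = 3), 5% olive oil (0.23 ± 0.41, SD, n = 3), 70% corn oil (-0.027 ± 0.36, SD, n = 3) and 5% corn oil (-0.77 ± 0.32, SD, n = 3). Among neighbours, the last pair alone did not overlap.

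The Acat1 set D00512_at stood at 0.17, -0.042 and 0.10 in pools 1 to 3 of 70% corn oil, against -0.18, 0.049 and 0.11 in those of 5% corn oil. With olive oil it stood at 0.051, -0.053 and -0.18 at 70% fat, against -0.80, 0.042 and -0.79 at 5% fat. Pools 1 and 3 of 5% olive oil were the 2 low arrays, and the others ran from -0.18 to 0.17. The order of means was 70% corn oil (0.079 ± 0.11, SD, n = 3), 5% corn oil (-0.0095 ± 0.15, SD, n = 3), 70% olive oil (-0.059 ± 0.11, SD, n = 3) and 5% olive oil (-0.51 ± 0.48, SD, n = 3), and the arrays of every neighbouring pair overlapped.

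The Acat1 set D00512_g_at stood at 0.066, -0.066 and -0.56 in pools 1 to 3 of 70% corn oil, against 0.076, -0.17 and -0.18 in those of 5% corn oil. With olive oil it stood at 0.29, 0.26 and 0.27 at 70% fat, against -0.45, 0.24 and -0.58 at 5% fat. The 3 arrays of 70% olive oil were the highest of all 12 and lay close together, just above pool 2 of 5% olive oil. The order of means was 70% olive oil (0.28 ± 0.012, SD, n = 3), 5% corn oil (-0.094 ± 0.15, SD, n = 3), 70% corn oil (-0.19 ± 0.33, SD, n = 3) and 5% olive oil (-0.26 ± 0.44, SD, n = 3). Here the arrays of 70% olive oil stood apart from those of 5% corn oil, and the other neighbours overlapped.

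The comparison of 70% with 5% fat asked how the liver's transcripts differ with dietary fat. With corn oil 0 of the 4 member probe sets passed limma's test, where 2.11% of all probe sets did (an unadjusted p of at most 0.05 was reached by 1 of the 4, against 18.8% of all). Acat1 D13921_s_at was 0.74 ± 0.22 (SE, n = 3) higher at 70% fat, a 1.67-fold difference with a 95% confidence interval from 0.25 to 1.23 (adjusted p = 0.106). It was the 1 of the 4 sets whose arrays did not overlap, which 18.9% of all probe sets showed. On these arrays the mean 3'/5' index was 0.71 at 70% fat and 1.28 at 5% fat, and with the index as a covariate D13921_s_at was at 0.31 ± 0.23 (SE). Acat1 D00512_at differed by 0.088 (interval -0.32 to 0.50) and D00512_g_at by -0.094 (interval -0.53 to 0.34). Bdh1 differed by -0.15 ± 0.18 (SE), with an interval from -0.54 to 0.25 and an adjusted p of 0.73. Without pool 1 of 5% corn oil Bdh1 was at 0.11, and with the index as a covariate at 0.15, so its direction is not settled.

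With olive oil 0 of the 4 member probe sets passed limma's test, where 0.435% of all probe sets did (an unadjusted p of at most 0.05 was reached by 2 of the 4, against 8.46% of all). All 3 Acat1 sets were fitted higher at 70% fat on arrays whose mean index was -0.35 at 70% fat and -0.36 at 5% fat. D00512_g_at differed by 0.54 ± 0.20 (SE, adjusted p = 0.442), D00512_at by 0.46 ± 0.19 (SE, adjusted p = 0.523) and D13921_s_at by 0.41 ± 0.22 (SE, adjusted p = 0.731). The arrays of both fat levels did not overlap for D00512_g_at, which 19.8% of all probe sets showed. Pool 2 of 5% olive oil was the high array of its group for each Acat1 set. Without it D00512_at differed by 0.73 and was called (adjusted p = 0.0229), while D00512_g_at differed by 0.79 (adjusted p = 0.0743) and D13921_s_at by 0.64 (adjusted p = 0.441). Bdh1 differed by 0.24 ± 0.18 (SE), with an interval from -0.16 to 0.63 and an adjusted p of 0.832.

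**Figure D2:**
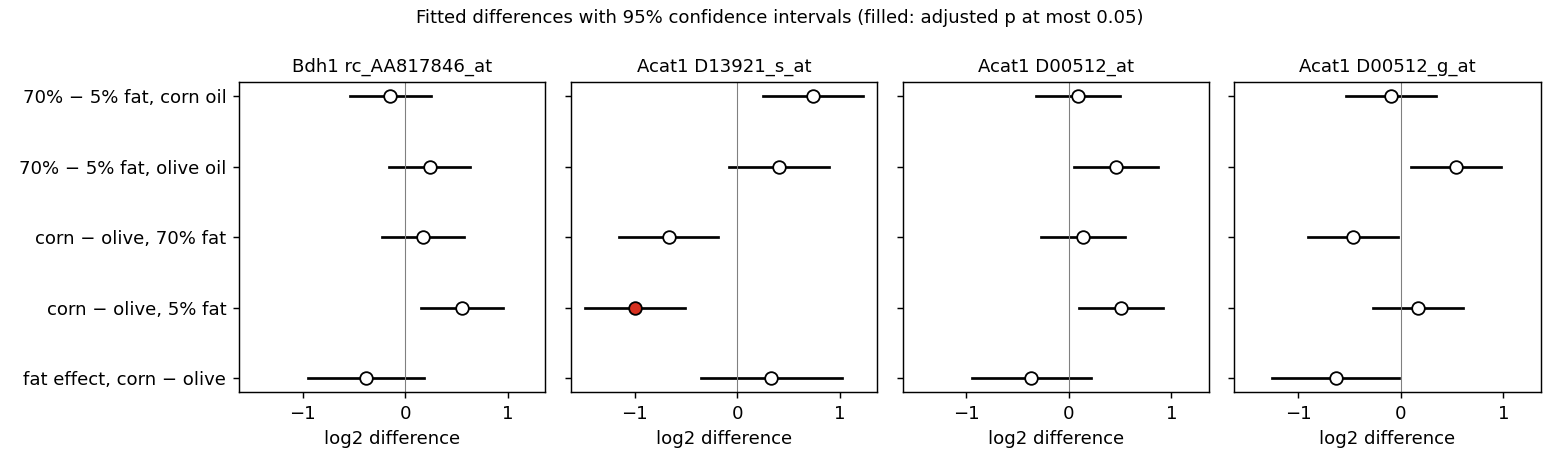
Each point is a fitted log2 difference of a probe set (horizontal axis) in 1 comparison (vertical axis), with its 95% confidence interval, and a filled point passed the test. The 1 filled point is Acat1 D13921_s_at for corn minus olive oil at 5% fat, at -1.0.

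Averaged over both oils, 0 of the 4 sets passed limma's test, against 2.28% of all probe sets. D13921_s_at was at 0.57 ± 0.16 (SE) with an adjusted p of 0.0954. Without pool 3 of 5% corn oil it was called at 0.67 (adjusted p = 0.0497), and without pool 2 of 5% olive oil it was called at 0.69 (adjusted p = 0.0301). Without each array in turn it ran from 0.47 to 0.69, with an adjusted p of up to 0.227. In the other settings, the index as a covariate among them, it ran from 0.37 to 0.57 (adjusted p from 0.104 to 0.263). D00512_at was at 0.27 ± 0.13 (SE, adjusted p = 0.382) and was called only without pool 2 of 5% olive oil, at 0.41 (adjusted p = 0.0203). D00512_g_at was at 0.22 ± 0.14 (SE, adjusted p = 0.53). The mean fat effect on Bdh1 was 0.045 ± 0.13 (SE, adjusted p = 0.907), with an interval from -0.24 to 0.33. With 1 value per gene, the mean of its probe sets, Acat1 was 0.36 ± 0.12 (SE) higher at 70% fat over both oils (interval 0.087 to 0.63, adjusted p = 0.203).

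The fat effect was set against itself between oils by the interaction of the model. Of the 4 member sets 0 passed, and of all 8740 probe sets 0 passed as well (0%), while 1028 (11.8%), and 1 of the 4 member sets, had an unadjusted p of at most 0.05. D00512_g_at had the largest difference of the members, -0.63 ± 0.28 (SE, adjusted p = 0.418), from a fat effect of -0.094 with corn oil and 0.54 with olive oil. Bdh1 was at -0.38 ± 0.26 (SE, adjusted p = 0.579), D00512_at at -0.37 ± 0.27 (SE, adjusted p = 0.61) and D13921_s_at at 0.33 ± 0.32 (SE, adjusted p = 0.722).

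The comparison of corn with olive oil asked how transcripts differ with the type of fat. At 70% fat 0 of the 4 member sets passed limma's test, where 8.51% of all probe sets did. D13921_s_at was at -0.67 ± 0.22 (SE, adjusted p = 0.0873), lower on the corn oil arrays. It was called at -0.87 without pool 2 of 70% corn oil (adjusted p = 0.0227), the corn oil array with the lowest 3'/5' index. D00512_g_at was at -0.46 ± 0.20 (SE, adjusted p = 0.184), D00512_at at 0.14 ± 0.19 (SE, adjusted p = 0.734) and Bdh1 at 0.17 ± 0.18 (SE, adjusted p = 0.647). The oils did not overlap for 3 of the 4 sets, D13921_s_at, D00512_g_at and Bdh1, which 27.2% of all probe sets showed.

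At 5% fat 1 of the 4 member sets passed, where 19.5% of all probe sets did, so the share of the members lay near that of the array as a whole. Acat1 D13921_s_at was lower with corn oil, at -1.0 ± 0.22 (SE), with an interval from -1.49 to -0.51 and an adjusted p of 0.0082. The call held without each array in turn (adjusted p from 0.0038 to 0.0385). Acat1 D00512_at lay on the other side, at 0.51 ± 0.19 (SE, adjusted p = 0.0816), and was called at 0.78 without pool 2 of 5% olive oil (adjusted p = 0.00235). D00512_g_at was at 0.17 ± 0.20 (SE, adjusted p = 0.608). Averaged into 1 value per gene, Acat1 was at -0.11 ± 0.18 (SE, interval -0.49 to 0.27, adjusted p = 0.72).

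Bdh1 was at 0.55 ± 0.18 (SE) for corn minus olive oil at 5% fat, with an interval from 0.16 to 0.95 and an adjusted p of 0.0519. Its arrays did not overlap between the oils, and neither did those of D13921_s_at, 2 of the 4 sets where 41.3% of all probe sets showed this. Bdh1 was called in 4 of the alternative settings, among them a second quantile normalization (0.54, adjusted p = 0.0282) and array weights (0.42, adjusted p = 0.0368). It was also called at 0.75 without pool 3 of 5% corn oil (adjusted p = 0.0101). Without pool 1 of 5% corn oil, the highest array, Bdh1 was at 0.30 (adjusted p = 0.161).

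Averaged over both fat levels, 1 of the 4 sets passed, against 24.3% of all probe sets. D13921_s_at was at -0.83 ± 0.16 (SE, adjusted p = 0.00218), a 1.78-fold lower value with corn oil, and the call held without each array in turn. Bdh1 was at 0.36 ± 0.13 (SE, adjusted p = 0.0605), D00512_at at 0.32 ± 0.13 (SE, adjusted p = 0.103) and D00512_g_at at -0.15 ± 0.14 (SE, adjusted p = 0.503).

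The member values were also set beside the 3'/5' index of each array. The 2 arrays with the highest index, pools 1 and 2 of 5% corn oil at 1.5 and 1.36, had the lowest D13921_s_at values, -0.99 and -0.91. Within the corn oil arrays, the one with the lowest index, pool 2 of 70% fat at 0.16, had the highest D13921_s_at value, 0.38. Within the olive oil arrays D13921_s_at did not follow that order: it was 0.78 on the array with the highest index (-0.23, pool 1 of 70% fat) and 0.072 on the array with the lowest (-0.43, pool 3 of 5% fat). D00512_at was at -0.18 and 0.049 on the 2 arrays with the highest index and at -0.79 on the array with the lowest. D00512_g_at was at 0.076 and -0.17 on those 2 arrays and at -0.58 on the array with the lowest index. Bdh1 was highest, at 0.76, on the array with the highest index and lowest, at -0.49, on the array with the lowest, pool 3 of 5% olive oil at -0.43. With the index as a covariate D13921_s_at was at 0.25 ± 0.47 (SE) for corn minus olive oil at 5% fat (adjusted p = 0.944) and Bdh1 at -0.30 ± 0.43 (SE, adjusted p = 0.925), both with the sign turned. In that fit 0 of all probe sets passed limma's test for the oils at 5% fat, 522 had an unadjusted p of at most 0.05, and the median SE was 0.29, against 0.11 without the covariate. At 70% fat 0 of all probe sets passed as well, with a median SE of 0.20. A call lost between the oils in that fit is therefore not particular to any probe set. The part of RNA quality in the oil differences cannot be told apart from the oil.

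**Figure D3:**
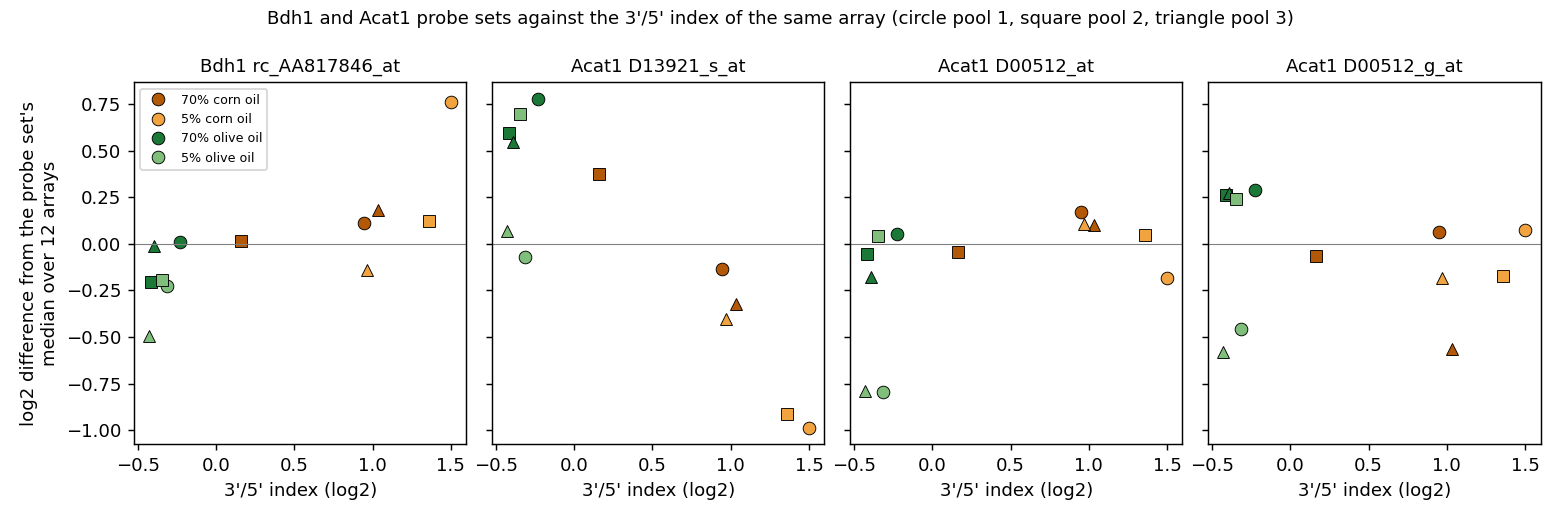
Each point is 1 array, placed by its 3'/5' index (horizontal axis, log2) and the log2 difference of the probe set from its median (vertical axis), coloured by diet. The corn oil arrays lie at 0.16 to 1.5 and the olive oil arrays at -0.43 to -0.23 on the index, and D13921_s_at is lowest on the 2 arrays with the highest index.

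The difference between oils was compared among the 3 Acat1 sets in each of their 3 pairs. Within an array, D13921_s_at minus D00512_at ran from -0.96 to 0.42 with corn oil and from 0.65 to 0.86 with olive oil, with means of -0.43 ± 0.48 and 0.72 ± 0.077 (SD, n = 6 each). Corn minus olive oil was -1.16 (exact permutation of the oils within each fat level, two-sided p = 0.005, the smallest it allows, adjusted 0.015 over 3 comparisons), and the arrays of the oils did not overlap. D13921_s_at minus D00512_g_at ran from -1.06 to 0.44 with corn oil and from 0.27 to 0.65 with olive oil, and differed by -0.69 (exact permutation, two-sided p = 0.02, adjusted 0.02), with arrays that overlapped. D00512_at minus D00512_g_at ran from -0.26 to 0.67 with corn oil and from -0.45 to -0.20 with olive oil, and differed by 0.47 (exact permutation, two-sided p = 0.015, adjusted 0.02), also with overlap. All 3 pairs carried the same index difference between the oils. Over the 12 arrays, Pearson's r was 0.50 between D00512_at and D00512_g_at, 0.47 between D00512_g_at and D13921_s_at, and -0.0036 between D00512_at and D13921_s_at. Bdh1 had an r of -0.57 with D13921_s_at, 0.41 with D00512_at and 0.23 with D00512_g_at. These values are descriptions over arrays that share the diets and the index.

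The transcripts whose pattern was most like each member were taken from the other 4734 genes by Pearson's r over the 12 arrays, which also share the diets and the index. For D13921_s_at they were Slc3a2 (0.97), the heavy chain of amino acid transporters, Cyp2b15 (0.94), Decr2 (0.94), a peroxisomal dienoyl-CoA reductase, Hadhb (0.93), the thiolase subunit of the mitochondrial trifunctional protein, and Gstm1 (0.93). For Bdh1 they were Zfp455l1 (0.93), Mras (0.92), Xrn2 (0.92), a nuclear exoribonuclease, Etfa (0.92), a subunit of the flavoprotein that takes electrons from acyl-CoA dehydrogenases, and Igf2 (0.91). For D00512_at the nearest was the nuclear receptor Nr4a1 (0.82), followed by Adgrl1 (0.81), Gsk3b (0.81), Klf6 (0.81) and Cyp2e1 (0.81). For D00512_g_at it was Meox2 (0.84), followed by Mapk8ip1 (0.81), Gstm2 (0.80), Thra (0.78) and Abcb4 (0.78). No gene stood among the 5 nearest of more than 1 of the 4 sets.

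Other genes of ketone body synthesis, use and transport were measured by 6 probe sets of 5 genes, and none of the 6 passed for fat level with either oil. Ppara, the fatty acid receptor that drives ketogenic genes in fasting liver, was at 0.036 ± 0.10 (SE) with corn oil and 0.29 ± 0.10 (SE, adjusted p = 0.406) with olive oil. Both sets of Slc16a1, the monocarboxylate transporter that carries ketone bodies and lactate, were fitted higher at 70% fat, at 0.67 and 0.46 with corn oil and 0.37 and 0.17 with olive oil, without passing. Bsg, the chaperone that brings this transporter to the cell surface, differed in direction between the oils. It was at 0.53 ± 0.17 (SE, adjusted p = 0.119) with corn oil and -0.42 ± 0.17 (SE, adjusted p = 0.511) with olive oil. The interaction for Bsg was 0.95 ± 0.24 (SE, adjusted p = 0.267). The median of the 6 sets was 0.34 with corn oil, where all probe sets had -0.0075, and 0.13 with olive oil, where all had 0.028. With the index as a covariate, the corn oil values of Slc16a1 and Bsg changed. The Slc16a1 set rc_AI145680_s_at, at 0.67 before, was at 0.040 ± 0.20 (SE), and D63834_at, at 0.46 before, was at 0.34 ± 0.27 (SE). Bsg, at 0.53 before, was at 0.20 ± 0.17 (SE).

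Between oils 1 of the 6 sets fell at 70% fat, and 2 fell and 1 rose at 5% fat. Slc16a1 rc_AI145680_s_at was lower with corn oil, at -1.35 ± 0.26 (SE, adjusted p = 0.0101) at 70% fat and -1.65 ± 0.26 (SE, adjusted p = 0.00109) at 5% fat. The other Slc16a1 set, D63834_at, was at -0.31 and -0.60 and passed at neither level. Bsg was lower with corn oil at 5% fat, at -1.12 ± 0.17 (SE, adjusted p = 0.000876), and at -0.17 ± 0.17 (SE) at 70% fat. Slc16a6, another member of the transporter family, rose by 0.37 ± 0.097 (SE, adjusted p = 0.0192) at 5% fat. The index separated these arrays in the same way. With it as a covariate 0 of all probe sets passed between the oils at either fat level, so the loss of these calls is not particular to them. In that fit rc_AI145680_s_at was at -0.16 ± 0.29 (SE) at 70% fat and 0.19 ± 0.42 (SE) at 5% fat. Bsg was at -0.15 ± 0.35 (SE) and Slc16a6 at 0.41 ± 0.27 (SE) at 5% fat.

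The other thiolases were measured by 7 probe sets of 5 genes. None of the 7 passed for fat level with 1 oil alone, and 2 rose in the mean of both oils. These were Acaa1b, a peroxisomal thiolase, at 0.89 ± 0.17 (SE, adjusted p = 0.0153), and Acaa2, the mitochondrial thiolase of fatty acid oxidation, at 0.48 ± 0.11 (SE, adjusted p = 0.0446). With the index as a covariate neither was called in the mean fat effect. Acaa1b was then at 0.83 ± 0.20 (SE, adjusted p = 0.08) and Acaa2 at 0.45 ± 0.13 (SE, adjusted p = 0.14). The cytosolic Acat2, which makes acetoacetyl-CoA for cholesterol synthesis, had 2 sets. Its set rc_AA859980_at was at 0.41 ± 0.26 (SE) with corn oil and at -1.28 ± 0.26 (SE, adjusted p = 0.0571) with olive oil, with an interaction of 1.69 ± 0.36 (SE, adjusted p = 0.261), and rc_AA859980_g_at was at 0.35 and -0.90. Between oils at 70% fat 1 set rose and 1 fell, Acat2 rc_AA859980_at at 1.16 ± 0.26 (SE, adjusted p = 0.0182; the other Acat2 set at 0.78, adjusted p = 0.109) and Hadhb at -1.23 ± 0.34 (SE, adjusted p = 0.044). At 5% fat 2 fell, Hadhb at -1.77 ± 0.34 (SE, adjusted p = 0.00337) and Scp2 M58287_s_at at -1.32 ± 0.27 (SE, adjusted p = 0.00473). The second Scp2 set was at 0.16 ± 0.14 (SE) there, and the difference between both sets was not tested. With the index as a covariate 0 of all probe sets, and so no thiolase set, passed between the oils at either fat level. Hadhb was then at 0.36 ± 0.36 (SE) at 70% fat and 0.68 ± 0.51 (SE) at 5% fat.

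**Figure D4:**
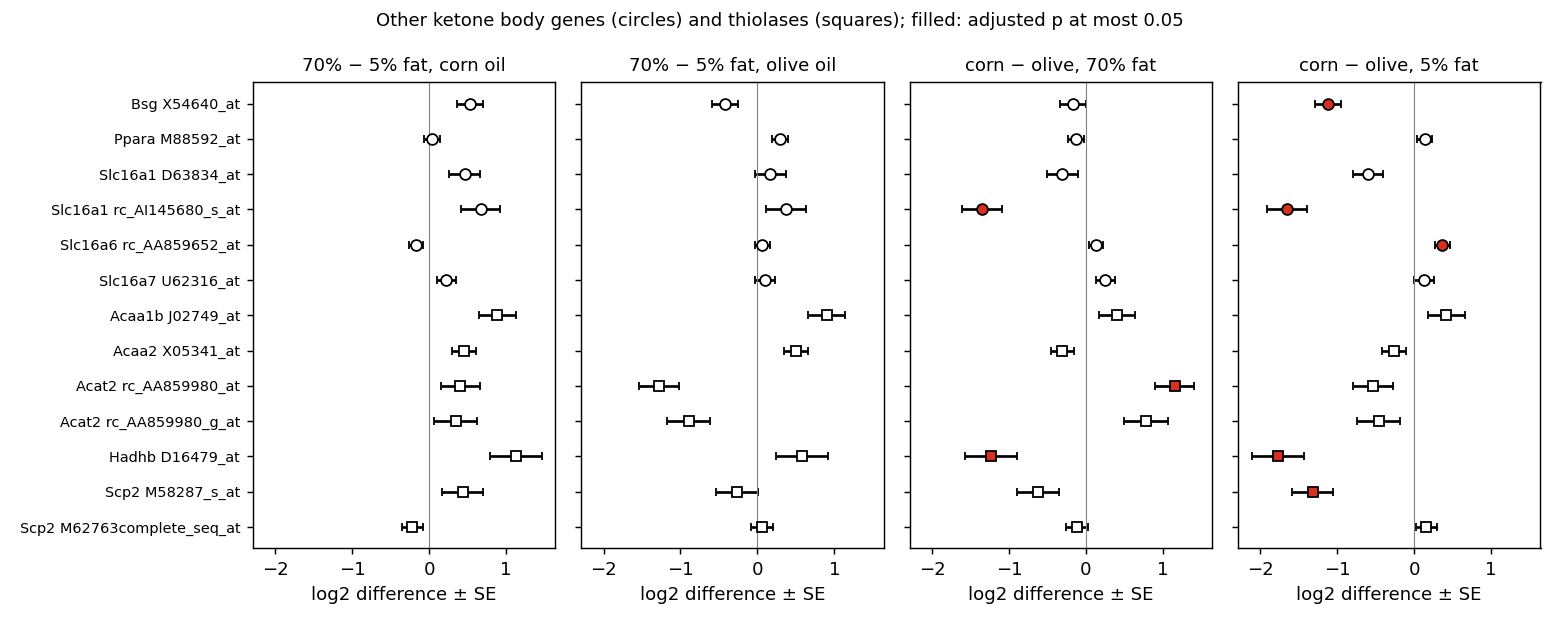
Each point is the fitted log2 difference ± SE of a probe set (horizontal axis) of a ketone body gene (circles) or thiolase (squares) in 4 comparisons, and filled points passed the test. No point is filled for fat level, and between oils the filled points farthest below 0 are Hadhb (-1.77) and Slc16a1 rc_AI145680_s_at (-1.65) at 5% fat.

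The breakdown of isoleucine and the other branched-chain amino acids was covered by 16 probe sets of 13 genes, the regulatory kinase Bckdk among them. None of the 16 passed for fat level with either oil. Between oils 2 rose and 2 fell at 70% fat, and 3 rose and 3 fell at 5% fat. Acadsb, which oxidises the acyl-CoA of isoleucine upstream of Acat1, was lower with corn oil, at -0.99 ± 0.19 (SE, adjusted p = 0.0101) at 70% fat and -0.77 ± 0.19 (SE, adjusted p = 0.0143) at 5% fat. Aldh6a1, of valine breakdown, was at -1.75 ± 0.24 (SE, adjusted p = 0.00258) and -2.01 ± 0.24 (SE, adjusted p = 0.000297). Bckdha encodes a subunit of the branched-chain ketoacid dehydrogenase. Its set J02827_g_at was higher with corn oil, at 0.47 ± 0.092 (SE, adjusted p = 0.0109) at 70% fat and 0.46 ± 0.092 (SE, adjusted p = 0.00423) at 5% fat, while its set J02827_at was at 0.12 (adjusted p = 0.406) and -0.0024 (adjusted p = 0.989). With the index as a covariate 0 of all probe sets, and so none of these, passed between the oils at either fat level. At 70% and 5% fat, Aldh6a1 was then at -0.61 ± 0.25 (SE) and -0.26 ± 0.35 (SE). Acadsb was at -0.77 ± 0.37 (SE) and -0.43 ± 0.52 (SE), and J02827_g_at at 0.46 ± 0.18 (SE) and 0.45 ± 0.26 (SE).

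Short-chain dehydrogenases and reductases, the enzyme family of Bdh1, were measured by 7 probe sets of 6 genes. With fat level 1 rose under corn oil, Hsd17b2, a steroid dehydrogenase, at 1.41 ± 0.30 (SE, adjusted p = 0.0355), and it was at 1.21 ± 0.30 (SE, adjusted p = 0.165) under olive oil. The mean of both was called at 1.31 ± 0.21 (SE, adjusted p = 0.00666), and the interaction was 0.19 ± 0.42 (SE, adjusted p = 0.913). With the index as a covariate the mean stayed called at 1.43 (adjusted p = 0.0134), while the corn oil value was not (1.65, adjusted p = 0.131). Between oils at 5% fat Hsd17b6 was lower with corn oil, at -1.09 ± 0.27 (SE, adjusted p = 0.0157). With the index as a covariate it was at -0.23 ± 0.71 (SE) there and was not called, in a fit that called 0 of all probe sets between the oils.

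In bulk liver, a change in the share of a cell type and a change in RNA per cell cannot be told apart. Among all probe sets, 19.5% passed between the oils at 5% fat and 8.51% at 70% fat. For fat level, 2.11% passed with corn oil and 0.435% with olive oil. Of 13 probe sets of hepatocyte markers, 4 fell and 0 rose with corn against olive oil at 5% fat (median -0.19, all probe sets 0.056), among them 1 of the 4 Alb sets, rc_AA860062_g_at, at -0.76 ± 0.12 (SE, adjusted p = 0.00118). The other Alb sets were at 0.17, -0.014 and -0.037 and did not pass. Apoa1 J02597cds_s_at fell as well, at -0.77 ± 0.14 (SE), with its other set at -0.44 and not called. The Serpina1 sets X16273cds_at and X16273cds_g_at also fell, at -0.85 and -0.27, with its set rc_AI010453_at at 0.18 and not called. Of 4 sets of cholangiocyte markers 2 rose and 1 fell there (median 0.38), and of 11 sets of stellate cell and fibroblast markers 2 rose. Of 4 endothelial sets 1 rose and 1 fell, of 6 Kupffer cell and macrophage sets 1 fell (Cd14 AF087944mRNA_s_at at -0.86 ± 0.22, SE, with its other set at -0.017), and of 7 T and B lymphocyte sets 1 rose (Ptprc K03039mRNA_s_at at 1.27 ± 0.17, SE, with no call for its other sets). At 70% fat 1 Kupffer cell and macrophage set rose and 1 fell between the oils, and no set of the other marker lists passed. For the fat level with corn oil, 1 of the 13 hepatocyte sets rose and 1 of the 7 lymphocyte sets fell (Ptprc K03039mRNA_s_at at -0.94 ± 0.17, SE). With olive oil 1 of the 6 Kupffer cell and macrophage sets fell, and no set of the other marker lists passed. With the index as a covariate 0 of all probe sets, and so no marker set, passed between the oils at either fat level. At 5% fat Alb rc_AA860062_g_at was then at -0.24 ± 0.29 (SE) and Cd14 AF087944mRNA_s_at at 0.55 ± 0.43 (SE). Ptprc K03039mRNA_s_at was at 0.036 ± 0.24 (SE) there, and at -0.52 ± 0.12 (SE, adjusted p = 0.111) for fat with corn oil. The part of cell types in the Bdh1 and Acat1 values was not tested.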

How the data were processed

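Liver RNA from each pool (8 ug, per the labels) was hybridised to 1 of 12 single-colour Affymetrix arrays. The deposited table holds log2 values of 8799 probe sets, made with GCOS and RMA per the submitters' processing notes, which name no version. The base was taken as 2 from RMA. The row median was 0 within 1e-06 in 100% of the deposited rows, so the values are centred and a filter on low values could not be applied. The number of arrays limits the precision. There were 0 columns of other samples.

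After 59 array controls were left out, limma 3.58.1 in R 4.3.3 was fitted to 8740 probe sets with 4 diet means and 8 residual degrees of freedom (lmFit, eBayes, two-sided p). The code was tested on simulated data. Platform symbols were updated by gene identifier to the GRCr8 annotation, used for names alone: 7006 probe sets had 1 symbol, 308 several and 1426 none. Settings changed in turn were normalization, array centring, moderation, array weights, pool number as a block, the 3'/5' index as a covariate, the arrays in the fit, 1 value per gene and a 1.5-fold minimum.

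Named genes were the members, the 5 genes most like each member set, and list genes that were called or had the smallest p, of which the text names a part. The members, lists and tests were chosen with earlier results of these data known. Some genes of the lists are not reported here.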

Additional observations from a re-analysis of the deposited data

How the results depend on the processing

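The number of the 4 Bdh1 and Acat1 sets called for fat level was 0 with either oil under every setting run besides leaving out an array, as it was for the interaction and for the oils at 70% fat. For corn minus olive oil at 5% fat, where 1 was called, it was 2 after a second quantile normalization, with trend and robust moderation, with array weights and with the pool number as a block, and 0 with the index as a covariate and with 1 value per gene. For the mean of both oil effects, also 1, it was 2 after quantile normalization, with trend and robust moderation and with the block, and 0 with the index and with 1 value per gene. With the index 0 of all probe sets passed in either of these comparisons. Leaving out each array gave 0 to 1 calls for fat with olive oil and for the oils at 70% fat, 1 to 2 for the oils at 5% fat, 0 to 2 for the mean fat effect and 1 to 2 for the mean oil effect.

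Some values turned their sign, none of them called in either fit except D13921_s_at for the oils at 5% fat and in the mean. With the index as a covariate D13921_s_at was at 0.14 for the oils at 70% fat, 0.25 at 5% fat, 0.20 in the mean and -0.11 in the interaction. Bdh1 in that fit was at -0.38 for the oils at 70% fat, -0.30 at 5% fat, -0.34 in the mean and 0.15 for fat with corn oil. With array weights D00512_g_at was at 0.080 for fat with corn oil and -0.098 for the oils at 5% fat. Leaving out each array moved D00512_g_at from -0.22 to 0.094 and Bdh1 from -0.34 to 0.11 for fat with corn oil, and Bdh1 from -0.052 to 0.17 in the mean fat effect. The index coincides with the oil, and the cause of the other turns was not tested.

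Whether pool numbers pair the arrays was described and not tested. Of 18 same-numbered pairs 3 had deviations correlated above 0.1 (r from -0.19 to 0.23), and 6 of 12 arrays correlated best with their own number. With the replicate block, Bdh1 for the oils at 5% fat was at 0.55 (adjusted p = 0.0438) and in the mean at 0.36 (adjusted p = 0.04996), and no other member's call changed. Over all 8740 probe sets, calls were counted in every setting but that of 1 value per gene. They ran from 40 to 348 for fat with corn oil (184 as reported) and from 10 to 138 with olive oil (38). Between the oils they ran from 0 to 1162 at 70% fat (744) and from 0 to 2632 at 5% fat (1704). The ranges were 0 to 10 for the interaction (0), 109 to 249 for the mean fat effect (199) and 0 to 2557 for the mean oil effect (2120). The filter on low values was not run. Centred values give no signal over background.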
